A study of Mus musculus with 4 samples.

Results

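Atp10a, Gm40892, Fhit and Prlr are 4 mouse genes near which the authors listed many accessible chromatin regions as differing with the dose of interleukin-15 (IL-15) given to natural killer (NK) cells. They were chosen by the number of regions in the authors' deposited list named down, from readings of these same data, so that number is described here and not tested. An accessible region belonged to one of these genes if no other protein-coding gene lay nearer to it. Of 91266 accessible regions, 156 belonged to the 4 genes: 64 to Atp10a, 50 to Gm40892, 25 to Fhit and 17 to Prlr. Of these, 39 were in the down list, 5 in the up list and 112 in neither, here called unlisted. The genes had the highest down counts beside Tbc1d1 (13 of 53 regions), with an exception: Tox had 9 of 53, which is above the 8 of Fhit and of Prlr. Just outside were Ptger4 (6 of 39) and Qk (6 of 25), and 0 genes had 7.

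The samples were 4 ATAC-seq libraries, made with a transposase that cuts open chromatin, from splenic NK cells of wild-type C57BL/6 mice. There were 2 libraries from cells kept for 72 h in a high dose (HD) of IL-15 and 2 from cells kept for 72 h in a low dose (LD). The labels give neither the concentrations nor which dose the words up and down are relative to, so the lists keep their deposited names. No value per library was among the files used, so no spread between replicates, no depth and no size of any change can be given. The authors placed 1.4% of all regions in the down list and 4.21% in the up list. All 9 NK cell marker genes examined had an accessible region at a gene end, as did 2 of 4 T cell, 1 of 4 B cell, 2 of 4 myeloid and 1 of 2 red cell markers. A region shows only that a site was called accessible in the list for the whole series, and the share of other cells was not tested.

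NK cells are innate lymphocytes that need IL-15 to survive, and the cytokine signals through JAK kinases and the transcription factor STAT5. Accessible regions away from gene starts are often enhancers, which can lie far from the gene they act on, so that the nearest gene is a label for a position and need not be the gene controlled. Prlr encodes the prolactin receptor, a class I cytokine receptor that also signals through JAK2 and STAT5. Atp10a encodes a P4-ATPase, a flippase that moves phospholipids from the outer to the inner leaflet of the plasma membrane, and lies beside the imprinted genes Ube3a and Snrpn. Fhit encodes a diadenosine triphosphate hydrolase of the histidine triad family and spans a common fragile site. Gm40892 is a predicted gene known only by a model transcript.

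The start sites of these genes are described first and the down regions after them. RefSeq promoter windows (build GRCm38.p6, from 250 bp before to 50 bp after a start site) were matched for all 4 genes, 7 windows in all. Of the 7 windows, 3 overlapped an accessible region, each of them unlisted, and 0 overlapped a down region. Over all 32851 windows, 41.1% overlapped only unlisted regions and 0.134% overlapped a down region, so that 0 of 7 was not particular to these genes. The 3 accessible windows are shown first and then 2 of Prlr that lay outside accessible regions. Capitals mark matches, on either strand, to 7 short motifs: ETS GGAAG, RUNX TGTGGTT, T-box GGTGTGA, STAT5 TTCNNNGAA, AP-1 TGANTCA, TCF/LEF CTTTGAT and E-box CAGCTG.
Atp10a, chr7:58657952-58658251, plus strand: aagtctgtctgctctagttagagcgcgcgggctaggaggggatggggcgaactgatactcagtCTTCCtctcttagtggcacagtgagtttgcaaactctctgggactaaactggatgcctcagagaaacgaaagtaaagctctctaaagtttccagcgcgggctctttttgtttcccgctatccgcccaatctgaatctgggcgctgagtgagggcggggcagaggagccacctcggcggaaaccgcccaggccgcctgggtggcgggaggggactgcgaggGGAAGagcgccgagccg
Fhit first start, chr14:11161986-11162285, minus strand: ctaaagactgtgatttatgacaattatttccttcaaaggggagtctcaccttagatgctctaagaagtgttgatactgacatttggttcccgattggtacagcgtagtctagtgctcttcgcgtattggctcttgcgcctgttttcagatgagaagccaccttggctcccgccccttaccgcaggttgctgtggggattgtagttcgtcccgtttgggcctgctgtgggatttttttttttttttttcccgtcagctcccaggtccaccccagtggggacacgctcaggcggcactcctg
Fhit second start, chr14:10453409-10453708, minus strand: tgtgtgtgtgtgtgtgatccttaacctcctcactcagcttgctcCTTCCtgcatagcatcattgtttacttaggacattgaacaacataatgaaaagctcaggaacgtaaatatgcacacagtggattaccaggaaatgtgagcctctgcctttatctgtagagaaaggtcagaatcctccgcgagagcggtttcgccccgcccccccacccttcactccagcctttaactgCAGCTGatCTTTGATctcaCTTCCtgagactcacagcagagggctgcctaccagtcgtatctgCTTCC
Prlr first start, chr15:10176988-10177287, plus strand: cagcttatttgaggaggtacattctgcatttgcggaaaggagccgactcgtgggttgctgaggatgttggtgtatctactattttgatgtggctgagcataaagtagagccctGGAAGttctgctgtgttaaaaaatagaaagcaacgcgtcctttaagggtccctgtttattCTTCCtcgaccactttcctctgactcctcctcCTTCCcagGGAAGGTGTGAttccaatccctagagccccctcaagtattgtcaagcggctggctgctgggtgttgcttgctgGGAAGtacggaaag
Prlr second start, chr15:10223656-10223955, plus strand: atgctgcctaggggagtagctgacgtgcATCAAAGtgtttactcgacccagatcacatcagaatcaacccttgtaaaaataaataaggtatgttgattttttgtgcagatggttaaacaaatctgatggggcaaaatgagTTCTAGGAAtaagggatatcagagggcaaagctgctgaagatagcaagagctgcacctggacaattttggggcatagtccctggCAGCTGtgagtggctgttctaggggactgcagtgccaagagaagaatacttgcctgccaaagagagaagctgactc
In these windows, the Atp10a promoter held 2 ETS matches and the first Fhit promoter held 0 matches to any of the 7 motifs. The second Fhit promoter held 3 ETS matches, 1 E-box match and 1 TCF/LEF match. The first Prlr promoter held 5 ETS matches and 1 T-box match, and 1 of the ETS matches shares a base with the T-box match, so they print as 1 run. The second Prlr promoter held 1 match each to STAT5, TCF/LEF and E-box. The windows of Gm40892 and of the third Prlr start, not shown, also lay outside accessible regions. The Gm40892 window held 2 ETS matches, and the third Prlr window held 1 ETS and 1 AP-1 match. ETS letters were in 71.4% of all promoter windows, E-box in 16.3%, STAT5 in 8.3%, AP-1 in 7.81%, T-box in 3.98% and TCF/LEF in 3.73%. The motif matches are a description of the letters and not evidence of binding. Sequence of the down regions themselves was not used here.

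The Atp10a start site was covered by an unlisted region of 1193 bp (chr7:58657852-58659044), and the nearest down region was 34.6 kb from that promoter. The first Fhit start was covered by an unlisted region of 758 bp (chr14:11161725-11162482). A down region of 573 bp (chr14:11160719-11161291) began 433 bp further into the gene, and this was the closest approach of a down region to a start site among the 4 genes. The internal Fhit start lay in the widest accessible region of that gene, an unlisted region of 1243 bp (chr14:10452754-10453996), with the nearest down region 46.1 kb away. At the first Prlr start, an unlisted region of 398 bp (chr15:10177651-10178048) lay 364 bp beyond the window, and the nearest down region was 32.0 kb away. The second Prlr start had a down region as its nearest accessible region, at 4.57 kb. The single Gm40892 start had its nearest accessible region, an unlisted one, 10200 bp from the window.

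**Figure D1:**
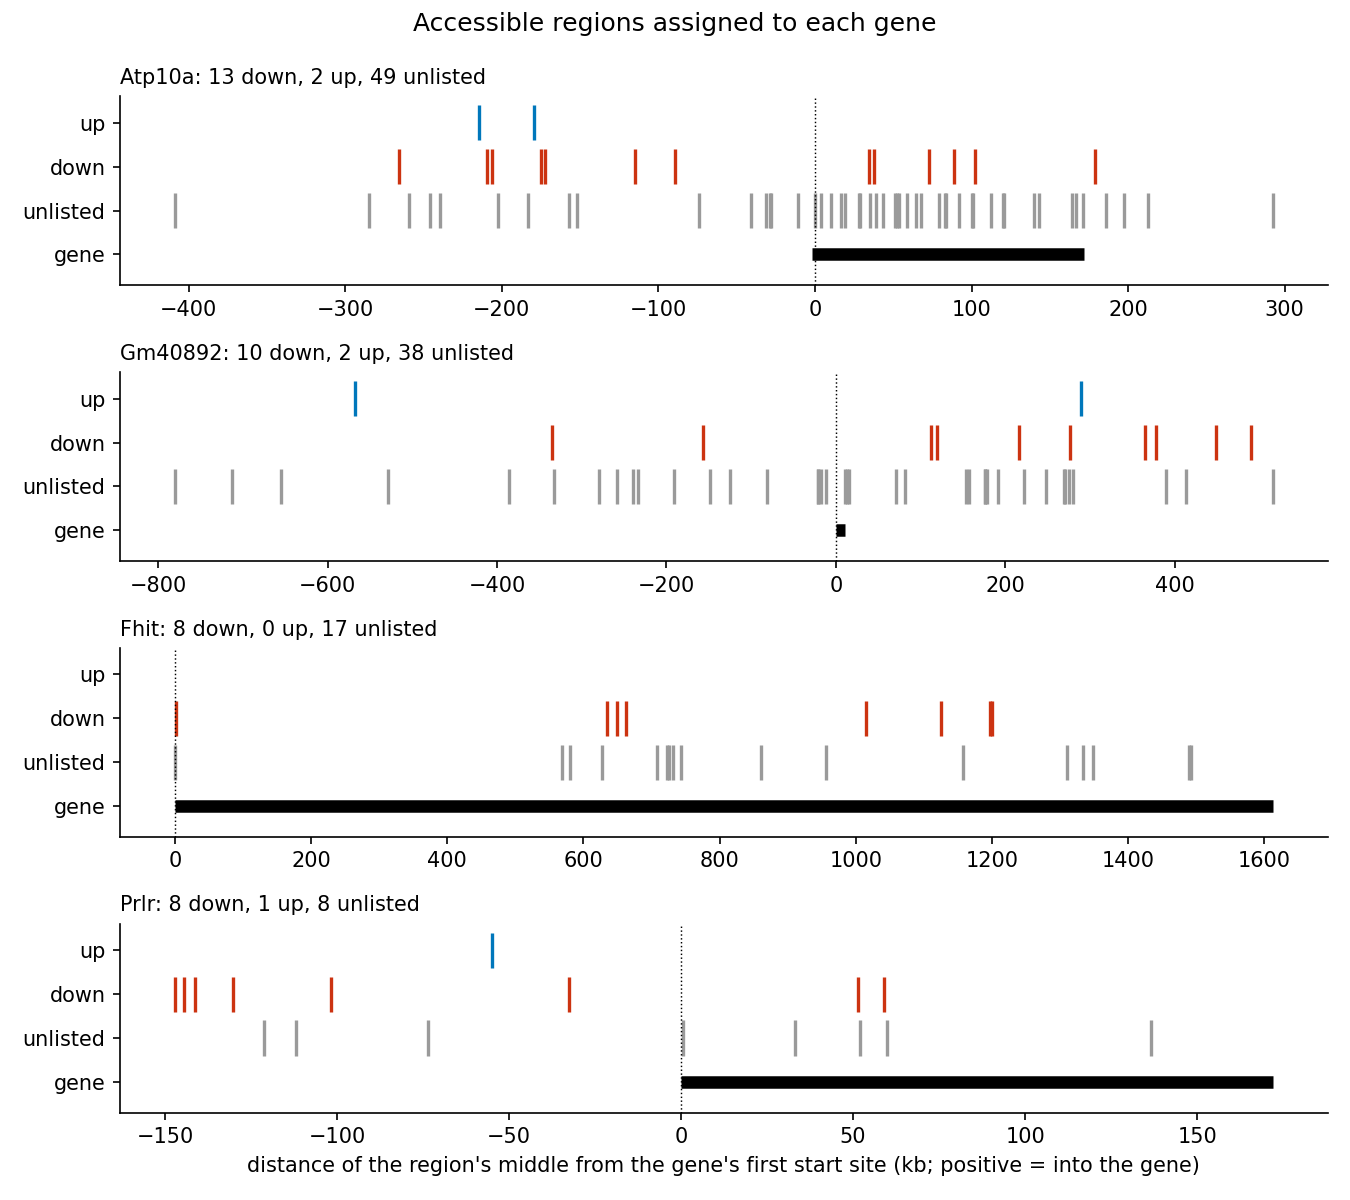
Each tick is an accessible region, placed by the distance of its middle from the gene's first start site (kb, positive into the gene), with rows for the up, down and unlisted regions and a black bar for the gene. The 8 down regions of Fhit lie in the gene, 6 of the 8 of Prlr and 7 of the 13 of Atp10a lie before it, and the 10 of Gm40892 lie outside it on both sides.

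Prlr had the largest share of regions in the down list of these genes, 8 of 17 or 47.1%, with 8 unlisted and 1 up, against 1.4% of all regions. The order depended on distant regions, since inside the gene 2 of 7 regions (28.6%) were down at Prlr and 8 of 25 (32%) at Fhit. Prlr spans chr15:10177238-10349190 on the plus strand. Of its 8 down regions, 6 lay before the gene and 2 inside it, while 5 of its 8 unlisted regions lay inside. The first 4 accessible regions assigned to the gene, counted along the chromosome, were all down. They ran from chr15:10029836-10030335 (500 bp) to chr15:10046521-10047482 (962 bp), 17.6 kb in total, with no other accessible region between them and gaps of 2.21, 2.62 and 10.1 kb. This group lay 130 to 147 kb before the gene.

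Beyond that group, the widest down region of Prlr, of 968 bp, stood 101 kb before the gene (chr15:10074927-10075894), and another of 599 bp stood 32.3 kb before it (chr15:10144372-10144970). Between these 2 lay the only up region of the gene, 304 bp wide (chr15:10122192-10122495) and 54.7 kb before the gene. It was 46.3 kb from the down region on one side and 21.9 kb from the one on the other. The remaining 2 down regions lay inside the gene, of 569 bp (chr15:10228527-10229095) and 685 bp (chr15:10235762-10236446). Each had an unlisted region beside it, at 131 bp and 302 bp. Each down region inside Prlr thus had a close neighbour that the authors did not list.

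Fhit, on the minus strand of chr14:9550092-11162061, is 1.61 Mb long, and all 25 of its accessible regions lay in it or over its start. There were 8 down regions (32.0%, against 1.4% of all regions), 17 unlisted and 0 up. The 0 of 25 allows an up share of up to 12%, so that the share of 4.21% over all regions could not have been told from it. Accessible regions were sparse here. From the first to the last of them there were 1.67 per 100 kb, against 9.13 per 100 kb over the like stretch of Atp10a. The down regions fell into 4 uninterrupted runs, of which 3 held 2 or more and together held 7 of the 8.

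The largest run of Fhit held 3 down regions over 27.5 kb, from chr14:10499838-10500109 (272 bp) to chr14:10526751-10527364 (614 bp), with gaps of 11.8 and 14.3 kb. It lay before the internal start site, 46.1 kb from that promoter window. A pair of 429 bp (chr14:9961961-9962389) and 527 bp (chr14:9965477-9966003), 3.09 kb apart, lay further into the gene. Another uninterrupted pair was made of the widest down region of Fhit, 617 bp (chr14:10036525-10037141), and one of 590 bp (chr14:10146361-10146950), although 109 kb separated them. The remaining down region, beside the first start, was 633 kb from the nearest other one. By number of regions, the longest stretch without a listed one held 7 unlisted regions over 248 kb and ended with the one at the internal start.

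Atp10a, on the plus strand of chr7:58656142-58830244, had 13 down regions of 64 (20.3%, against 1.4% of all regions), with 49 unlisted and 2 up. Of the 13, 7 lay before the gene, 5 inside it and 1 beyond its end, whereas 30 of the 49 unlisted regions lay inside. The down regions were spread over 445 kb, in 10 runs of which 3 were pairs and 7 were single regions. The 3 pairs all lay before the gene. Between the last of them and the first down region inside the gene stood 13 unlisted regions in a row, over 103 kb, including the one at the start site.

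The widest down region of Atp10a, of 1549 bp, lay inside the gene (chr7:58730095-58731643). It opened the largest cluster, in which down regions are joined across gaps under 20 kb: 3 down regions over 30.4 kb, ending at chr7:58760092-58760516 (425 bp) and holding 6 unlisted regions among them. Inside the gene the down regions thus stood among unlisted ones. Before the gene, a pair of 871 bp (chr7:58448555-58449425) and 377 bp (chr7:58451979-58452355) was 2.55 kb apart, and a pair of 898 bp (chr7:58483057-58483954) and 490 bp (chr7:58485417-58485906) was 1.46 kb apart. The third pair, of 654 bp (chr7:58542697-58543350) and 1222 bp (chr7:58567959-58569180), was 24.6 kb apart.

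Each of the 2 up regions of Atp10a stood next to a down pair. The up region of 477 bp (chr7:58443197-58443673) was 4.88 kb from the first pair, and that of 232 bp (chr7:58478405-58478636) was 4.42 kb from the second. No accessible region lay between either up region and its pair. Over the whole genome, 352 pairs of consecutive listed regions were less than 5 kb apart, and 6 of these pairs joined an up with a down region. Of those 6, 2 were the ones at Atp10a and 0 were at the other 3 genes. These pairs were singled out after their values were seen.

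Gm40892 is a short gene of 11.2 kb (chr12:92883718-92894950, minus strand) whose nearest protein-coding genes are Sel1l, 1035 kb away on one side, and Flrt2, 2797 kb away on the other. Pseudogenes and non-coding RNA genes also lie in this interval, and when genes of any biotype could be nearest, 15 of its 50 regions and 3 of its 10 down regions went to Gm40892. Its count therefore describes an interval poor in protein-coding genes rather than the gene: 49 of its 50 accessible regions lay outside the gene, and so did all 10 down regions (20%, against 1.4% of all regions) and both of its up regions. The accessible regions stretched over 1296 kb and the down regions over 827 kb. Of the 10, 8 lay beyond the end of the gene, at 101 to 479 kb, and 2 lay before its start, at 157 and 335 kb. Around the gene itself, 12 accessible regions in an unbroken row, over 232 kb, were unlisted.

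Down regions stood further apart at Gm40892 than at Prlr: the median gap between neighbouring down regions was 69.3 kb, with a smallest gap of 5.92 kb. For comparison, the median gap was 10.1 kb at Prlr, 27.7 kb at Atp10a and 70.5 kb at Fhit. The median gap between all neighbouring accessible regions was 20.5 kb at Gm40892, 9.77 kb at Prlr, 5.06 kb at Atp10a and 18.6 kb at Fhit. The largest clusters of Gm40892 held 2 down regions each. In the wider of them, a region of 781 bp (chr12:92516082-92516862) was followed by the widest down region of the interval, of 1035 bp (chr12:92529521-92530555). In the other, regions of 712 bp (chr12:92775567-92776278) and 762 bp (chr12:92782196-92782957) were 5.92 kb apart. The up regions measured 542 bp (chr12:92605655-92606196) and 474 bp (chr12:93462099-93462572), and the former was 11.7 kb from a down region of 932 bp (chr12:92617869-92618800).

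**Figure D2:**
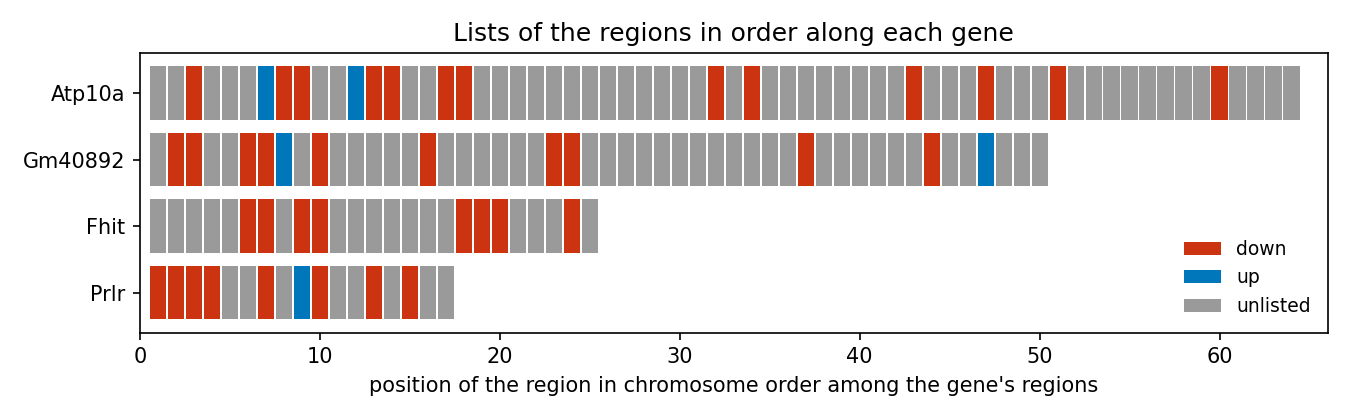
Accessible regions of each gene in chromosome order, 1 bar each, coloured red for down, blue for up and grey for unlisted. Prlr begins with 4 down regions in a row, Fhit has a row of 3, and at Atp10a a stretch of 13 unlisted regions separates the down regions before the gene from those inside it.

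Whether other genes with about as many accessible regions had as many in the down list was looked at next, over all genes whose region count was within 20% of the member's. For Prlr there were 789 such genes with 14 to 20 regions, of which 80.2% had 0 down regions and the highest count was 4, reached for example by Gata6, Cd2, Gpr174 and Klf3. For Fhit there were 504 with 20 to 30 regions, of which 69.6% had 0 and the highest had 6 (Qk). No gene in either set reached the 8 of Prlr and of Fhit. For Prlr this depended on distant regions, since with only regions inside genes counted, 12 genes of similar count had as many down regions as Prlr, which then had 2. For Gm40892 there were 88 with 40 to 59 regions and a median of 1 down region, and for Atp10a 33 with 52 to 74 regions and a median of 1. In both of these sets 1 gene had as many, Tbc1d1 with 13. Since the 4 genes were picked for these counts, the comparison places them among other genes and tests nothing.

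The up list was not used to choose the genes, although a region cannot be in both lists. It held 3.12% of the regions of Atp10a (95% Wilson interval 0.861 to 10.7%), 4% of those of Gm40892 (1.1 to 13.5%) and 5.88% of those of Prlr (1.05 to 27%). Each interval includes the 4.21% of all regions. The genes with similar region counts had 2.76%, 3.78% and 4.77% of their regions in the up list, in the same order, and 4.56% for Fhit. An excess or lack of up regions was thus not detectable in numbers this small, and the intervals cover counting error only.

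**Figure D3:**
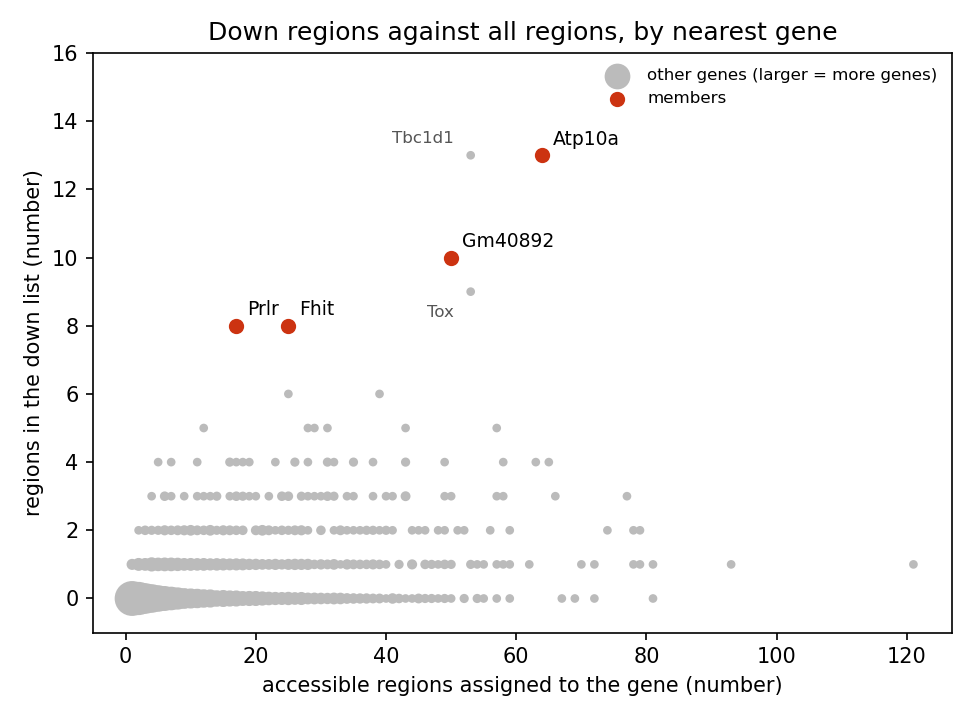
Regions in the down list (vertical axis, number) against all accessible regions assigned to the gene (horizontal axis, number), for each gene with at least 1 region, larger grey points standing for more genes. The 4 red points stand above the grey points of like region count, apart from Tbc1d1 with 13. Tox, with 9, lies just below Gm40892.

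Clustering alone did not set the 4 genes apart from others with many down regions. Of the 14 genes with at least 5 down regions, the largest cluster held between 2 and 7 down regions, with a median of 3. Tbc1d1 had the cluster of 7 and Khdc1a one of 5, while the largest held 4 at Prlr and at Qk, 3 at Atp10a and Fhit and 2 at Gm40892. Of gaps between neighbouring down regions, 4 of 7 were under 20 kb at Prlr, 5 of 12 at Atp10a, 3 of 7 at Fhit and 2 of 9 at Gm40892.

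The down regions were wider than the unlisted regions of the same gene in each of the 4 genes, by the median. At Atp10a the median width was 654 bp for down regions (range 206 to 1549 bp) and 452 bp for unlisted ones (150 to 1285 bp). At Gm40892 it was 737 bp (355 to 1035 bp) against 346 bp (150 to 987 bp), and each of the 10 down regions was wider than the unlisted median. At Fhit it was 576.5 bp (272 to 617 bp) against 389 bp (173 to 1243 bp), a difference of 187.5 bp that was 74.3 bp by the mean. The ranges overlapped in all 4 genes, including Prlr, with 642 bp (240 to 968 bp) against 351 bp (204 to 530 bp). Over all regions the medians were 537 bp for down and 392 bp for unlisted regions, so that a wider down region was not particular to these genes. Width can affect how many reads a region collects, and its part in the authors' calls was not tested.

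**Figure D4:**
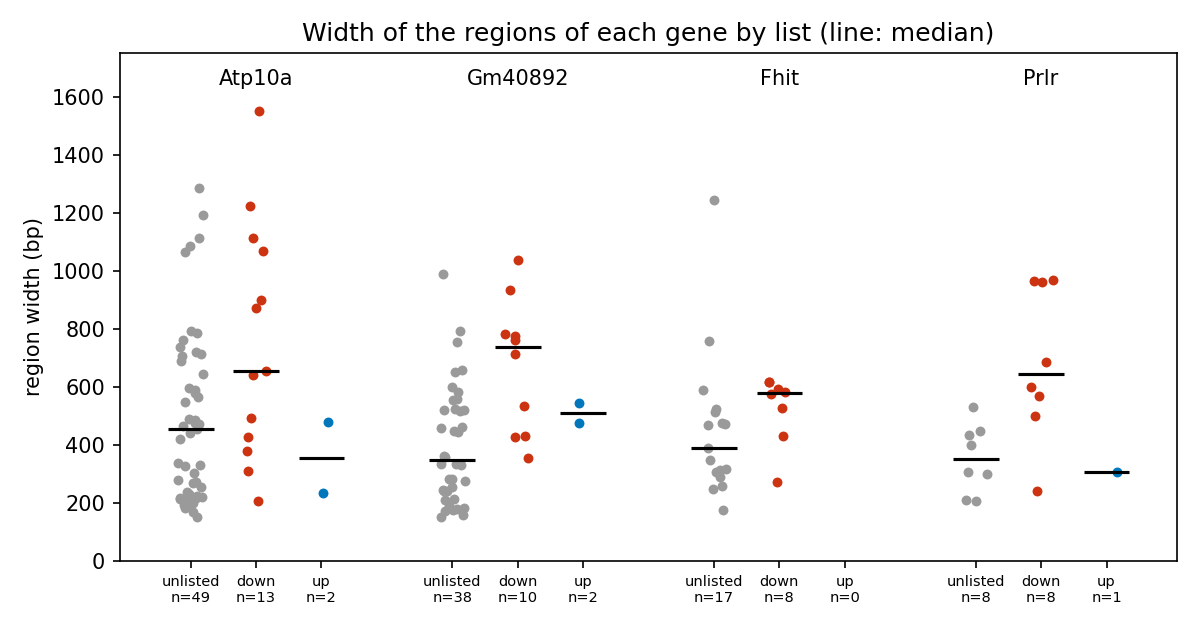
Width of each accessible region in bp, by gene and list, with the median as a line. Down regions have the higher median at all 4 genes, with overlapping ranges, and the widest points of Fhit are unlisted regions at its 2 start sites.

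Regions in different classes could lie very close together. Of the 39 down regions, 6 had an unlisted region within 500 bp: 2 at Atp10a, 2 at Prlr and 1 each at Gm40892 and Fhit. That is 15.4%, close to the 16.4% (209 of 1275) over the whole down list. Inside the gene's span lay 38.5% of the down and 61.2% of the unlisted regions of Atp10a, and 25% of the down and 62.5% of the unlisted regions of Prlr. This contrast rested largely on distant regions: among regions within 100 kb of the gene, the shares were 71.4% of 7 down and 76.9% of 39 unlisted regions at Atp10a, and 66.7% of 3 down and 83.3% of 6 unlisted regions at Prlr. Over all regions 59.6% of the down and 61.6% of the unlisted regions lay within a protein-coding gene.

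The genes on either side were examined in the same way. Of the 24 genes that are the 3 nearest on either side of a member, 21 had an accessible region, 5 had a down region and 2 an up region, with 8 of 128 regions down (6.25%, against 1.4% of all regions). Over all genes with an accessible region, 5.39% had a down region. Their median number of regions was 3, while the 21 neighbours held 128, so the shares of genes are not at like region counts. The 128 included 2 up regions, against 4.21% of all regions. Beside Atp10a, the ubiquitin ligase gene Ube3a had 0 of 4 regions down. Further along, Snurf had 1 of 3 regions down and Snrpn had 0 of 3. Within 500 kb of the outermost Atp10a regions, 0 of 4 regions on either side were listed. At Fhit, its flanking neighbours Cfap20dc and Ptprg had 0 down regions among 4 each.

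Down regions lay closer by at the other 2 genes. Below Gm40892, 3 of the 6 accessible regions within 500 kb were down, all assigned to Sel1l, an adaptor of the endoplasmic reticulum ubiquitin ligase, so that the series of down regions went on past the stretch assigned to Gm40892. On the Prlr side, Il7r, which encodes the interleukin-7 receptor alpha chain, lay 647 kb away with 2 of 4 regions down and Capsl had 1 of 5 down. Spef2, between Il7r and Prlr, had 0 of 15 down. Dnajc21 had its single region down. Within 500 kb of the outermost Prlr regions, 1 of 16 regions on the Il7r side was down, and on the other side 3 of 23 were down, assigned to Dnajc21 and Rai14, and 1 was up.

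Genes related to the members by function are given against the 1.4% of all regions in the down list and the 4.21% in the up list. The share of all genes with a down region was 5.39%. Of the P4-ATPases and their partners, 17 of 18 matched the gene table. The 16 besides Atp10a had 1 down region among 148 (Atp11b, 1 of 15), or 0.676%, at 6.25% of the genes with an accessible region. They had 3 up regions, or 2.03%. The 26 class I cytokine receptors and signalling genes besides Prlr had 6 down and 3 up regions among 170, or 3.53% down and 1.76% up. The down regions were at 5 of the 24 genes with an accessible region (20.8%). The median number of accessible regions was 5.5 over these 26 genes, against 3 over all genes with a region. The down regions were 2 at Il7r and 1 each at Il2rb (of 12), Il2rg (of 3), Il4ra (of 16) and Jak2 (of 6). Il2rb and Il2rg encode the beta and gamma chains of the IL-15 receptor, Il4ra a chain of the interleukin-4 receptor and Jak2 the kinase bound by the prolactin receptor. The 8 histidine triad and diadenosine phosphate genes besides Fhit had 0 listed regions among 31, which allows a down share of up to 9.68% (3 counts of 31). The median number of down regions was 0 in each list, as over all genes.

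Other large genes had fewer down regions than Fhit, but Fhit was chosen for its high down count, so this places it and tests nothing. Of 59 protein-coding genes of at least 1 Mb, 47 had an accessible region and 6 of these had a down region. The 6 include Fhit, chosen for its count, and are given beside 5.39% of all genes with an accessible region. The other large genes with a region had a median of 8 regions, against 3 over all genes with a region. The highest count besides Fhit was 5 of 43 regions at Nrxn3, a neurexin gene of nearly equal length, and together the other large genes had 10 down regions among 503 (1.99%, against 1.4% of all regions). The 11 other genes of common fragile sites had 5 down and 18 up regions among 225. That is 2.22% down, against 1.4% of all regions, and 8% up, against 4.21%. At least 1 down region was found at 4 of the 9 genes with an accessible region (44.4%, against 5.39% of all genes). The median number of accessible regions was 18 over these 11 genes, against 3 over all genes with a region. The down regions were 2 at Immp2l (of 27) and 1 each at Wwox (of 78), Magi2 (of 19) and Nbea (of 18).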

How the data were processed

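ATAC-seq had been run on 4 libraries, 2 per IL-15 dose, grouped by their titles. The authors deposited a list of accessible regions and lists of up and down regions, holding positions only, with 0 columns of values per sample. Per the submitters' processing notes the build was mm10, the same assembly as GRCm38, and BWA, ArchR, MACS2 and HOMER 4.11.1 were used. Their roles, whether peaks were pooled, the differential test, its threshold and the reference dose are not given in the sources used here. Depth is unknown. The planned test of the doses (edgeR on counts) needed values per sample and was not run, so no p-value is given.

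Starts were raised by 1, and coordinates are 1-based. Each region went to the nearest of 21900 RefSeq protein-coding genes (GRCm38.p6) by distance to the gene's span, ties to the nearer end. Exons and introns were not annotated. Functions for assignment, clusters, runs and motifs were tested on simulated data. Python 3.11.15, pandas 2.3.3, numpy 2.4.6, scipy 1.17.1 and matplotlib 3.10.9 were used. Genes, gene lists and rules were chosen with earlier results of these data known. Named by rule were the 4 genes, their 3 neighbours on each side, and listed related genes with a down region, with the widest down region, the ends of the largest cluster, the up regions and the region at the start of each gene. Other named genes and regions were chosen after their values were seen. Alternatives varied the assignment of regions, the cluster gap, the width measure and the window of similar counts.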

Additional observations from a re-analysis of the deposited data

How the results depend on the processing

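No paired analysis was possible because the tables hold no values per sample, and for the same reason the planned test of the doses, DESeq2, the count filters and leaving out a replicate were not run. For the 20 values described, 46 alternatives were run. In 32 the value stayed within the bounds set (1.5 times for a count, the binomial interval for a share, 1 SD of unlisted widths for a difference in width), and 14 moved. The bounds are wide: within them, the Fhit width difference went from 187.5 to 74.3 bp by the mean, and the largest clusters of Atp10a and Fhit from 3 to 2 with gaps under 10 kb. How regions are given to genes mattered most. The down count of Atp10a, 13, was 5 inside the gene's span, 6 inside it or within 10 kb, and 6 when genes of any biotype could be nearest. That of Gm40892, 10, was 0 inside the span, 0 within 10 kb and 3 with any biotype. That of Prlr, 8, was 2 inside the span and 2 within 10 kb, and that of Fhit was 8 under all 5 alternatives. The share of down regions inside the gene became 71.4% at Atp10a and 66.7% at Prlr among regions within 100 kb, against 76.9% and 83.3% of unlisted ones, because distant regions were left out. No such value exists for Gm40892, whose down regions all lay further away. With gaps under 50 kb the largest cluster of Atp10a held 5. Among genes of similar region count, those with as many down regions as Atp10a became 0 within 10%, and those with as many as Gm40892 became 2 within 30%. Counting only regions inside genes, 12 genes had as many as Prlr.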

Other observations

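The first row of the authors' deposited down list is the Atp10a region chr7:58448555-58449425, and row 4 is the Prlr region chr15:10035407-10036371. Other down regions of the 4 genes stood as far down as row 1257 of 1275, at Fhit. What orders the rows is not stated. From the down region beside the first Fhit start to the next accessible region further into that gene, 566856 bp held no accessible region. The 13 down regions of Atp10a had other genes of any biotype as their nearest in 7 cases: 5 had the transfer RNA gene n-TEttc7 and 1 each the non-coding RNA gene Gm39019 and the pseudogene Gm6226.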
